A study of Rattus norvegicus with 10 samples.

Results

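NMDA receptors are the glutamate-gated calcium channels of the synapse, and the 6 genes described here encode subunits of them: Grin1, Grin2a, Grin2b, Grin2c, Grin2d and Grin3a. The members were taken by name from 17168 gene symbols measured in rat hippocampus, and all 6 were among the 11791 genes with enough counts to be tested. The study compared 5 untreated female TgF344-AD rats with 5 that were fed RG2833, an inhibitor of the histone deacetylases HDAC1 and HDAC3, to learn how the drug alters hippocampal gene expression. Chow with 750 mg of RG2833 per kg was given from 5 months of age for 6 months, the controls ate rodent chow, and a blue food dye told the chows apart, although the labels do not say which one held it. All 10 animals carried the transgenes, so both groups model Alzheimer's disease and no rat without them was analysed here. As background, the line expresses mutant human amyloid precursor protein and presenilin under a prion promoter. Every rat was killed at 11 months under ketamine and xylazine, and ketamine is itself a blocker of the NMDA receptor channel. The left hippocampus of each animal gave 1 mRNA library, so replicates are animals.

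A working NMDA receptor needs the GluN1 subunit, which Grin1 encodes and which binds the co-agonist glycine or D-serine. GluN1 assembles with GluN2 subunits, which bind glutamate and set how fast the channel closes, how strongly magnesium blocks it and which proteins hold it at the synapse. In the adult hippocampus GluN2A and GluN2B (Grin2a and Grin2b) predominate in excitatory neurons, GluN2C (Grin2c) is best known from cerebellar granule cells and is also found in astrocytes, GluN2D (Grin2d) is found largely in interneurons, and GluN3A (Grin3a) is a juvenile subunit that binds glycine and lowers calcium entry.

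The promoter of Grin1 is shown because Grin1 was the 1 member whose level passed the test between the groups, and that of Grin2c because Grin2c had the next smallest p-value. Both come from RefSeq (GRCr8), which matched 4 of the 6 members (Grin1, Grin2c, Grin2d and Grin3a), and each window runs from 250 bases before the gene's start to 50 bases after it. They are written 5′ to 3′ on the gene's strand, which is the minus strand for both, at chr3:28528705-28529004 for Grin1 and at chr10:101005089-101005388 for Grin2c. Capitals mark matches to any of 4 motifs searched on both strands.
Grin1: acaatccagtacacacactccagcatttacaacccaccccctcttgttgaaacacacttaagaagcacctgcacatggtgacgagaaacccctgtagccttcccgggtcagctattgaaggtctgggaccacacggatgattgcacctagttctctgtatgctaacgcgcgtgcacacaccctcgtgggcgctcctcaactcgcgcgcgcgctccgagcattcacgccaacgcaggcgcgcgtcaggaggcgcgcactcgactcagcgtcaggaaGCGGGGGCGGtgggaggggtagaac
Grin2c: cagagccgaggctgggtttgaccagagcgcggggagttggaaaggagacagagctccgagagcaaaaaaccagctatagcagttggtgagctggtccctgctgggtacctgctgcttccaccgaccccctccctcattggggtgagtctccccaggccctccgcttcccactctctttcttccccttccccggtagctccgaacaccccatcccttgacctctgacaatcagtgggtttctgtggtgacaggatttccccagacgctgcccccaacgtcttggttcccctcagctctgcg

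The Grin1 window held 1 GC box (GGGCGG, the letters bound by Sp1-type factors) and 1 EGR-type site (GCGGGGGCG), and these overlapped, so the capitals form 1 run whose first base lies 25 bases after the start. The windows of Grin2c, Grin2d and Grin3a held neither, and none of the 4 windows held a cAMP response element (TGACGTCA) or the left part of an RE1 element (TTCAGCACC). Of 27457 rat promoter windows of the same length, 34.9% held the GC box, 2.78% the EGR-type site, 1.91% the cAMP response element and 0.379% the RE1 part. Grin1 had 25 CpG dinucleotides in its window, more than 82.1% of promoters, whereas Grin2c had 11, more than 58.3% (median of all promoters 7). A match describes letters only, and no binding was measured here.

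Total counts ran from 8764266 to 11131412 per library in untreated rats and from 9535071 to 11311673 in RG2833 rats, so 3 counts equalled 0.265 to 0.342 CPM. Levels below are the deposited TMM-scaled CPM, that is counts scaled to library size with the trimmed mean of M-values, and they are not corrected for transcript length. One gene can therefore be compared across animals, but the order of levels between genes is not given. Libraries differed in ways that touch the results. Ribosomal RNA loci took 2.70 to 5.36% of counts in untreated rats and 1.13 to 1.96% in RG2833 rats, and this share cannot be told apart from the treatment. Untreated replicate 1 carried choroid plexus RNA (summed CPM of 8 markers 2463, against 6.71 to 48.7 in the other 9 libraries). That library also had the highest sum of 8 oligodendrocyte markers, 18072 CPM. The sum was 5902 to 12939 CPM in the other untreated rats and 9253 to 12516 CPM in RG2833 rats. Hippocampal markers such as Wfs1, a CA1 gene, were detected in every library. Their spread differed, since Zbtb20 ran only from 14.005 to 27.3 CPM over all libraries whereas Wfs1 was the most uneven of the 6 used here. In the untreated group Wfs1 was 589 CPM in replicate 4 and 63.8 to 87.6 CPM in the others, and in the RG2833 group it ran from 108 to 605 CPM. The cerebellar granule cell gene Gabra6 stayed at or below 0.698 CPM.

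Of the 6 subunit genes, 1 rose in RG2833 rats and 0 fell (edgeR quasi-likelihood test, Benjamini-Hochberg adjusted p under 0.05 over all 11791 genes). Across all tested genes 5.08% were called in either direction and 2.41% were called higher, so a count of 1 in 6 is read only as a result about Grin1. Fitted log2 fold changes were above 0 for 5 members, as for 49.4% of all tested genes, and their median over the 6 was 0.33 against -0.0035 over all tested genes.

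Grin1, the obligatory subunit, rose by a factor of 1.38. Its level was 638, 577, 736, 792 and 710.0 CPM in untreated replicates 1 to 5, and 1028, 937, 916, 908 and 966 CPM in RG2833 replicates 1 to 5. Every RG2833 animal lay above every untreated animal, and the untreated values were spread more widely than the treated ones. The group means were 690.5 ± 84.3 and 951 ± 48.6 CPM (SD, n = 5 each), with a log2 fold change of 0.46 ± 0.09 (SE; 95% interval 0.27 to 0.66; edgeR adjusted p = 0.0183). With 5601 to 10723 counts per library, counting error alone would give a coefficient of variation near 1.204% in untreated rats, where 12.2% was observed, so sequencing depth was not the limit for this gene. The call was lost without RG2833 replicate 1, 2 or 5 (edgeR adjusted p = 0.0517, 0.0533 and 0.0570). The log2 fold change stayed between 0.41 and 0.52 whichever of the 10 animals was left out. With the replicate number as a block in the model the call was also lost (log2 fold change 0.47, edgeR adjusted p = 0.0568). When the share of ribosomal RNA entered the model, the value was 0.37 ± 0.18 (SE; edgeR adjusted p = 1.00).

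Neuronal marker lists did not all go the same way beside Grin1. The summed level of 8 excitatory neuron markers was 5831 to 8096 CPM in untreated rats and 7838 to 9327 CPM in RG2833 rats, with 1 of the 8 called higher (Nptx1), 0 lower, 6 above 0 and a median log2 fold change of 0.43. For 8 markers of neurons in general the sums were 6044 to 8726 and 8112 to 9763 CPM, with 1 called higher (Rbfox3), 0 lower, 5 above 0 and a median of 0.11. Tubb3 (-0.02), Stmn2 (-0.13) and Nefm (-0.04) of that list lay below 0, and its sum was dominated by Snap25, which alone ran from 2853 to 4702 CPM in untreated rats and from 4316 to 5420.0 CPM in RG2833 rats. Of 8 inhibitory neuron markers 2 were above 0 and 0 were called, with a median of -0.13. The summed ranges of the excitatory and general lists overlapped between the groups, unlike those of Grin1. The largest part of the excitatory sum was Nrgn, at 2413 to 3539 CPM in untreated and 2829 to 3646 CPM in RG2833 rats. Within that list 2 genes did not overlap between the groups, like Grin1, and the others did. These were Slc17a7 (1263 to 1806 and 1901 to 2356 CPM) and Nptx1 (786 to 1235 and 1430 to 1922 CPM). Untreated replicate 2, with the lowest Grin1, also had the lowest sum of both lists, and RG2833 replicate 1, with the highest Grin1, had the highest of both. Untreated replicate 1 went the other way, with the second lowest Grin1 and the highest general neuron sum of its group. The part of neuron content in the Grin1 result was not tested, and in bulk tissue fewer cells of a type cannot be told apart from less RNA per cell.

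**Figure D1:**
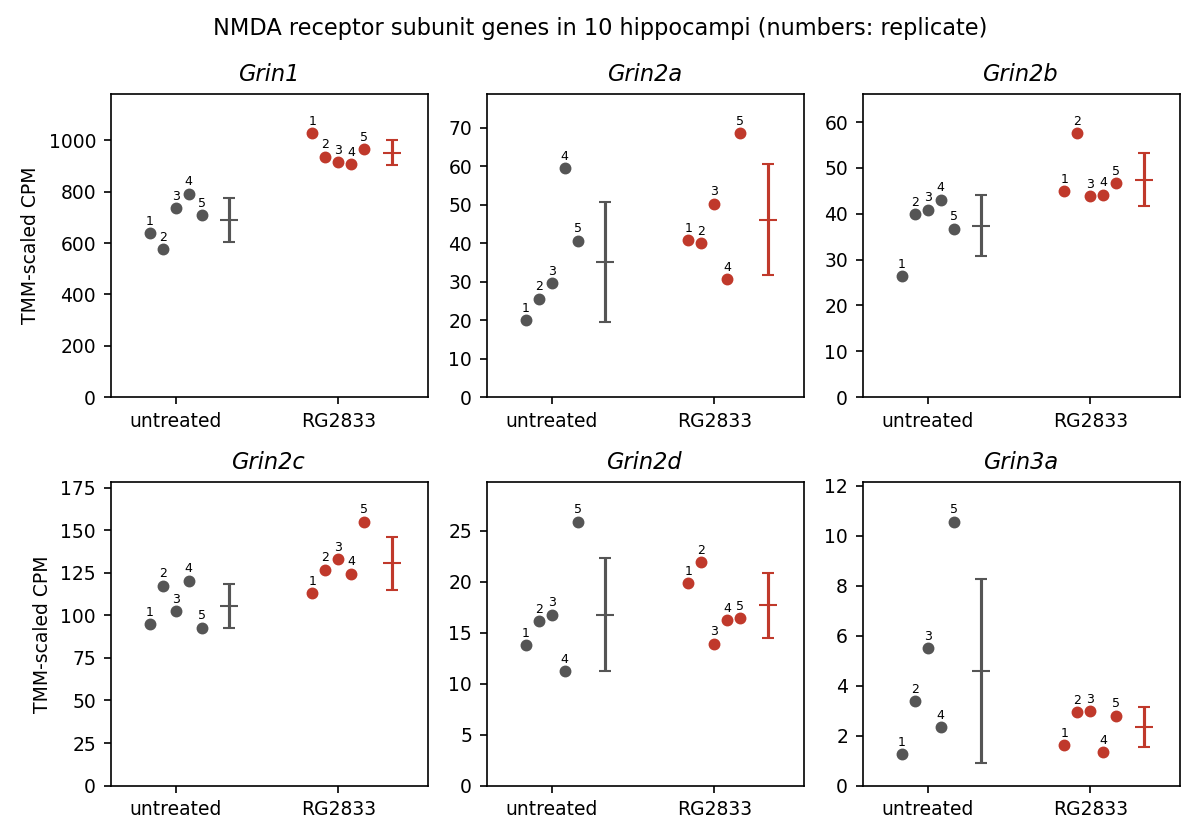
TMM-scaled CPM (vertical axes, from 0) of each subunit gene in untreated (grey) and RG2833 (red) rats, with 1 point per animal, its replicate number, and the mean ± SD of 5 animals to the right of each group. Grin1 and Grin2b are the 2 genes whose groups do not overlap, and untreated replicate 5 stands highest for Grin2d and Grin3a.

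Grin2b, which encodes the subunit with slow closing that anchors CaMKII, was higher in all 5 RG2833 rats but did not pass the test. It measured 26.4, 40.0, 40.9, 43.1 and 36.8 CPM in untreated replicates 1 to 5 and 45.0, 57.6, 43.9, 44.2 and 46.6 CPM in RG2833 replicates 1 to 5. The groups were separated only narrowly, 43.1 against 43.9 CPM, and the means were 37.4 ± 6.57 and 47.5 ± 5.77 CPM (SD, n = 5 each). The log2 fold change was 0.34 ± 0.12 (SE; 95% interval 0.07 to 0.61; edgeR adjusted p = 0.115). Grin1 and Grin2b were the 2 members whose groups did not overlap, as was true of 7.2% of all tested genes. The low untreated value came from replicate 1, the library with choroid plexus RNA, and without it the log2 fold change was 0.24 (edgeR adjusted p = 0.168).

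Grin2a, which encodes the subunit that gives adult receptors their faster closing, varied widely in both groups. The values were 20.04, 25.6, 29.6, 59.5 and 40.7 CPM in untreated replicates 1 to 5 and 40.9, 40.0, 50.3, 30.6 and 68.7 CPM in RG2833 replicates 1 to 5. The groups overlapped, since untreated replicate 4 exceeded 4 of the 5 RG2833 animals. The log2 fold change was 0.39 ± 0.28 (SE; 95% interval -0.20 to 0.99; edgeR adjusted p = 0.400), so this size of sample allows a change as large as that of Grin1 as well as none. Without untreated replicate 4 it was 0.67 (edgeR adjusted p = 0.0794), without untreated replicate 1 it was 0.25 (edgeR adjusted p = 0.617), and without RG2833 replicate 5 it was 0.20 (edgeR adjusted p = 0.716). Untreated replicate 4 had the highest hippocampal subfield sum of its group (1323 CPM over 6 markers) and replicate 1, lowest in Grin2a, had the lowest (354 CPM). In RG2833 rats the orders differed, because replicate 5 had the highest Grin2a and a subfield sum of 729 CPM within a range of 573 to 1409 CPM. The part of tissue composition was not tested.

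Grin2c was 94.8, 117, 102, 120.4 and 92.7 CPM in untreated replicates 1 to 5 and 113, 127, 133, 124 and 155 CPM in RG2833 replicates 1 to 5. Of the 5 RG2833 animals, 4 lay above the highest untreated animal, and replicate 1 lay within the untreated range. The log2 fold change was 0.31 ± 0.10 (SE; 95% interval 0.09 to 0.53), which did not pass (edgeR adjusted p = 0.0898). It did pass without untreated replicate 4 (0.36, edgeR adjusted p = 0.0391) and with DESeq2's Wald test (0.30, adjusted p = 0.0480). The summed level of 8 astrocyte markers overlapped between the groups, at 4822 to 7796 and 5417 to 7166 CPM, and 0 of the 8 were called by edgeR. Untreated replicate 5 was lowest in both Grin2c and the astrocyte sum. Untreated replicate 2 had the highest astrocyte sum of any library, 7796 CPM, but not the highest Grin2c of its group. The part of astrocyte content in the Grin2c values was not tested. Cerebellar granule cell markers summed to at most 16.4 CPM in any library, and in the 2 most specific of them, Gabra6 and Cbln3, some libraries had a count of 0.

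Grin2d and Grin3a were the members with few counts, and neither passed the test. Grin2d was 13.8, 16.2, 16.8, 11.2 and 25.9 CPM in untreated replicates 1 to 5 and 19.9, 21.9, 13.9, 16.2 and 16.4 CPM in RG2833 replicates 1 to 5. The RG2833 range lay inside the untreated range, with a log2 fold change of 0.08 ± 0.20 (SE; 95% interval -0.35 to 0.51; edgeR adjusted p = 0.836). Without untreated replicate 5 it was 0.29 (edgeR adjusted p = 0.247), and without untreated replicate 4 it was -0.035 (edgeR adjusted p = 0.922).

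Grin3a was 1.25, 3.39, 5.49, 2.33 and 10.6 CPM in untreated replicates 1 to 5 and 1.63, 2.94, 2.99, 1.34 and 2.80 CPM in RG2833 replicates 1 to 5. All 5 RG2833 values lay below the untreated median of 3.39 CPM, yet the lowest value of all was that of an untreated animal. It was the 1 member with a fitted fold change below 0, at -0.97 ± 0.47 (log2, SE; 95% interval -1.996 to 0.06; edgeR adjusted p = 0.230). Only 11 to 100 counts per library lay behind these values, and the untreated coefficient of variation was 79.9%, against 14.8% from counting error. Untreated replicate 5 decided much of the difference, since without it the log2 fold change was -0.42 (edgeR adjusted p = 0.507). The same animal had the highest Grin2d of all 10 and the highest sum of 8 inhibitory neuron markers (856 CPM, against 481 to 732 CPM in the other untreated rats and 491 to 666 CPM in RG2833 rats). Untreated replicate 1 went the other way, with the lowest Grin3a of all 10 animals and the second highest inhibitory sum (732 CPM). Of those 8 markers 0 were called by edgeR, and their part in the Grin3a values was not tested.

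**Figure D2:**
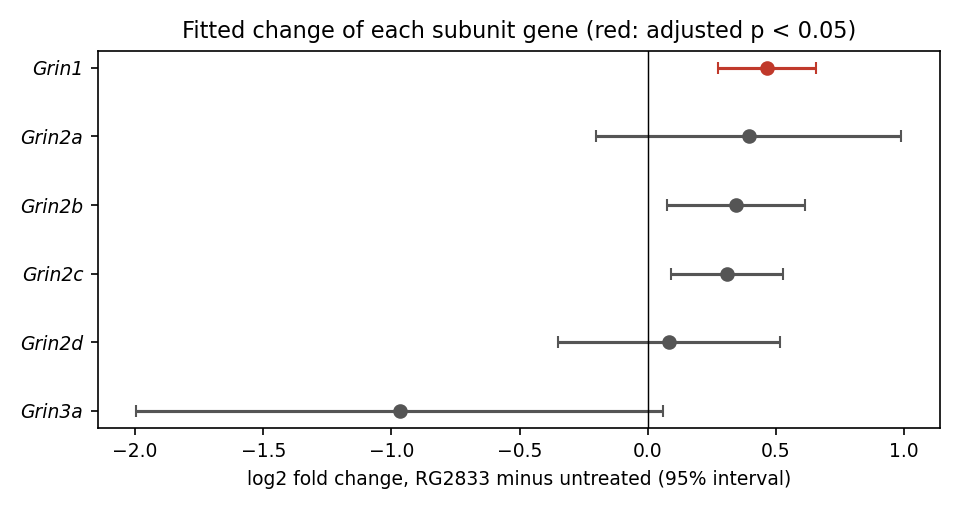
Log2 fold change of each subunit gene (horizontal axis, RG2833 minus untreated, edgeR fit on 10 animals) with its 95% interval as bars and the called gene in red. The intervals of Grin1, Grin2b and Grin2c lie above 0 before adjustment over all genes, and that of Grin3a is the widest.

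Whether the proportions of the subunit mRNAs shifted was asked with 6 ratios of counts within each animal, which do not depend on how a library is scaled. Being ratios of mRNA, they do not give the make-up of the receptors themselves. Differences between groups in these ratios also do not depend on gene length, whereas the ratios themselves do. None of the 6 passed (two-sided exact permutation tests on log2 ratios, 5 animals against 5, smallest possible p = 0.00794), and 0 had an unadjusted p under 0.05.

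The ratio of Grin2a to Grin2b, which is known to rise as receptors mature, was 0.759, 0.641, 0.725, 1.38 and 1.11 in untreated replicates 1 to 5 and 0.908, 0.695, 1.145, 0.694 and 1.47 in RG2833 replicates 1 to 5. The groups covered nearly the same range, and each held animals with more Grin2a counts than Grin2b counts and animals with fewer. The difference in log2 ratio was 0.09, with a 95% permutation interval from -0.63 to 0.83 (exact permutation p = 0.754, adjusted p = 0.905 over 6 ratios).

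Relative to Grin1, the ratio of Grin2b differed by -0.11 (95% interval -0.43 to 0.22; exact permutation p = 0.460, adjusted p = 0.690) and that of Grin2c by -0.16 (-0.51 to 0.13; exact permutation p = 0.341, adjusted p = 0.683). These intervals were the narrowest of the 6, yet single animals moved both values. For Grin2b it was -0.21 and -0.023 without untreated replicates 1 and 2, and -0.068 and -0.19 without RG2833 replicates 1 and 2. For Grin2c it was -0.060 without untreated replicate 2 and -0.085 without RG2833 replicate 1. The ratio of Grin2a to Grin1 differed by -0.02 (-0.76 to 0.67; exact permutation p = 0.913, adjusted p = 0.913). That of Grin2d to Grin1 differed by -0.35 (-0.91 to 0.24; exact permutation p = 0.206, adjusted p = 0.619). It was -0.54 without untreated replicate 4 (exact permutation p = 0.0317, adjusted p = 0.167) and -0.20 without untreated replicate 5 (exact permutation p = 0.397, adjusted p = 0.690).

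Grin3a relative to Grin1 gave the largest of the 6 differences. The ratio of counts was 0.00205, 0.00596, 0.00753, 0.00300 and 0.0150 in untreated replicates 1 to 5 and 0.00163, 0.00319, 0.00332, 0.00153 and 0.00296 in RG2833 replicates 1 to 5. Untreated replicates 1 and 4 lay within the RG2833 range and the other 3 above it. The log2 ratio differed by -1.14 (95% interval -2.31 to 0.30; exact permutation p = 0.0714, adjusted p = 0.429), with SDs of 1.13 and 0.55. Leaving out 1 animal gave differences from -1.49 without untreated replicate 1 (exact permutation p = 0.0238, adjusted p = 0.143) to -0.77 without untreated replicate 5 (exact permutation p = 0.143, adjusted p = 0.595).

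**Figure D3:**
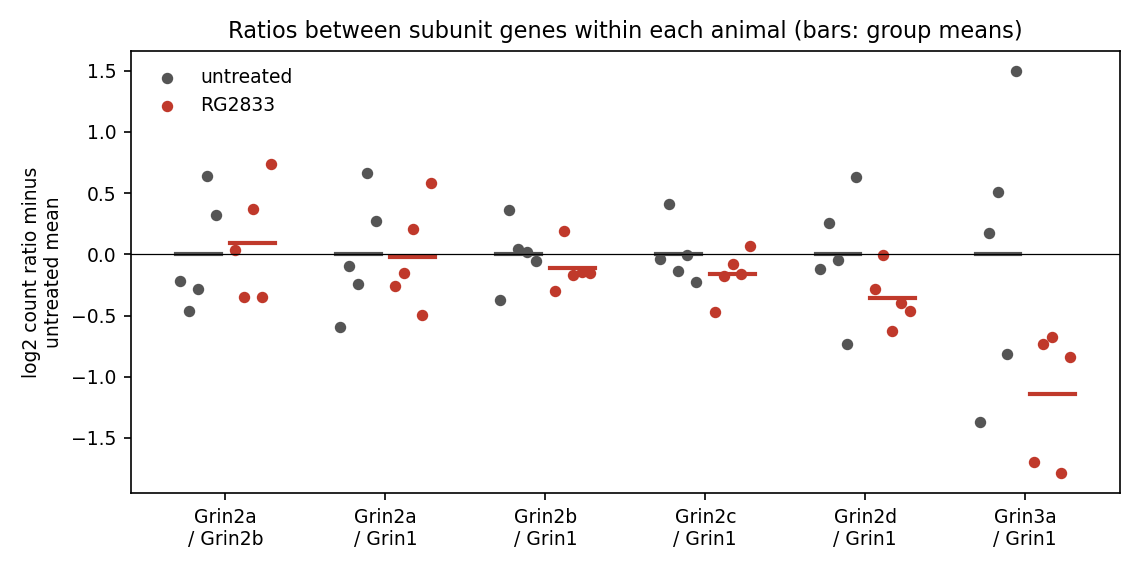
Log2 ratio of counts between 2 subunit genes in each animal, minus the untreated mean of that ratio (vertical axis), for untreated (grey) and RG2833 (red) rats, with short bars at the group means. The groups overlap in all 6 ratios, and Grin3a to Grin1 has the widest spread and the lowest RG2833 mean, at -1.14.

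The receptor works within a chain that runs from the supply of glutamate and glycine to the scaffold, the calcium-dependent enzymes and the factors that transcribe the subunit genes. Of 83 tested genes on 5 such lists, 14 rose and 0 fell in RG2833 rats, that is 16.9% called higher where 2.41% of all tested genes were. DESeq2's Wald test called 25 higher and 2 lower, and edgeR with a replicate block called 6 and 0. The count also depended on single animals. It was 27 higher and 4 lower without untreated replicate 4, 15 and 0 without untreated replicate 5, and 6 and 0 without untreated replicate 2. It was 3 and 0 without untreated replicate 1 or RG2833 replicate 4, and 1 and 0 without any one of the other 5 animals. When the share of ribosomal RNA entered the model, it was 0. Calls over all tested genes moved alike. They were 599 with all animals, 1556 without untreated replicate 4, 902 without untreated replicate 5, 113 without untreated replicate 3 and 98 without RG2833 replicate 5. Beside these lists, the median log2 fold change was 0.43 over the excitatory, 0.11 over the general and -0.13 over the inhibitory neuron markers. Among markers of other cells, 0 of 8 for endothelium were above 0 (median -0.33, summed CPM 252 to 386 in untreated and 237 to 266 in RG2833 rats) and 0 of 4 for oligodendrocyte precursors (median -0.18, 287 to 306 and 231 to 300.5 CPM). For microglia 1 of 8 was above 0 and Aif1 was called lower (median -0.24, 497 to 787 and 492 to 618 CPM). For oligodendrocytes the median was 0.13 with 8 of 8 above 0. Their summed CPM was 5902 to 18072 in untreated rats, highest in replicate 1, and 9253 to 12516 in RG2833 rats. For astrocytes the median was -0.014 with 4 of 8 above 0. Of 6 hippocampal subfield markers 5 were above 0 and 0 were called (median 0.41, summed CPM 354 to 1323 and 573 to 1409). Of 3 tested choroid plexus markers 0 were above 0 and Prlr was called lower (median -1.81). The choroid plexus sum was 2463 CPM in untreated replicate 1, while the group medians were 15.2 CPM in untreated and 11.8 CPM in RG2833 rats. Of 4 thalamus markers 1 was above 0 (median -0.21). The part of cell composition in these counts was not tested.

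Among 12 genes for the supply of glutamate and co-agonists, 0 passed the edgeR test (1 higher and 2 lower without untreated replicate 4). DESeq2's Wald test called 1 higher, Slc17a7, and 1 lower, Slc17a6. The median log2 fold change of the list was 0.03. The highest was Slc17a7, the vesicular glutamate transporter of hippocampal excitatory neurons, at 0.36 ± 0.11 (SE; edgeR adjusted p = 0.0689). The lowest was Slc17a6, the transporter that prevails in the thalamus, at -0.64 ± 0.21 (SE; edgeR adjusted p = 0.0861).

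Scaffold genes, whose products tether the receptor in the postsynaptic density, had 4 of 21 higher and 0 lower, with a median of 0.27. The scaffold count was 0 without untreated replicate 3 or any one RG2833 animal, 1 and 2 without untreated replicates 1 and 2, 8 higher and 1 lower without untreated replicate 4, and 6 without untreated replicate 5. The replicate block gave 2. Homer3, which links the scaffold to metabotropic receptors, rose from 75.8 ± 20.7 to 126 ± 14.2 CPM (0.74 ± 0.16 SE on the log2 scale, edgeR adjusted p = 0.0296). Shank3 (0.39), Dlgap1 (0.52) and Dlgap3 (0.41), which form the layer between PSD-95 and actin, also rose, with edgeR adjusted p from 0.0345 to 0.0495. Homer3 was called in 4 of the 10 fits without 1 animal, and Shank3, Dlgap1 and Dlgap3 in 2 each. Dlg4, which encodes PSD-95 and binds the tails of GluN2 subunits, had a log2 difference of 0.22 ± 0.10 SE (edgeR adjusted p = 0.191) and is named here although the rule did not choose it. Dlg1 was lowest at -0.24 (edgeR adjusted p = 0.219).

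Of 22 genes for calcium signalling below the receptor 5 rose and 0 fell, with a median of 0.22. The count was 10 higher and 1 lower without untreated replicate 4, 4 without untreated replicate 5, and 1 without untreated replicate 2. It was 0 without any one of the other 7 animals. The replicate block gave 3, which were Camk2a, Src and Rasgrf2, so Calm3, Fyn and Ptk2b lost their calls and Rasgrf2 joined. Src and Fyn, tyrosine kinases that phosphorylate GluN2 subunits, rose by 0.44 ± 0.09 and 0.30 ± 0.07 (log2, SE; edgeR adjusted p = 0.0247 and 0.0309), and Ptk2b, a kinase that activates Src, rose by 0.44 ± 0.10 (edgeR adjusted p = 0.0350). Calm3, 1 of the calmodulin genes, rose from 832 ± 105 to 1081 ± 32.8 CPM (edgeR adjusted p = 0.0351). Camk2a, the kinase that binds GluN2B, rose by 0.67 ± 0.17 (log2, SE; edgeR adjusted p = 0.0459), although its groups overlapped. Of the fits without 1 animal, Calm3 was called in 3, Src, Fyn and Ptk2b in 2 each and Camk2a in 1. Camk2d was lowest at -0.89 ± 0.26 (SE; edgeR adjusted p = 0.0688).

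Of 17 tested genes for trafficking and auxiliary proteins 1 rose, Ephb2, a receptor tyrosine kinase that binds GluN1, from 14.4 ± 3.98 to 24.2 ± 4.96 CPM (0.74 ± 0.19 SE on the log2 scale, edgeR adjusted p = 0.0420). Its groups overlapped, since the highest untreated animal had 20.6 CPM and the lowest RG2833 animal 17.4 CPM. It was called in 3 of the 10 fits without 1 animal (those without untreated replicate 4 or 5 or RG2833 replicate 4) and not with the replicate block. Without untreated replicate 4 the list had 3 higher. Vps35, part of the retromer, was lowest at -0.12 (edgeR adjusted p = 0.283), and the median of the list was 0.19.

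Transcription factors described as regulators of subunit genes had 4 of 11 higher and 0 lower, with a median of 0.37. Egr1, an activity-induced factor that binds EGR-type sites, rose from 52.9 ± 21.5 to 119 ± 13.96 CPM (1.18 ± 0.21 SE on the log2 scale, edgeR adjusted p = 0.0138). It was called whichever of the 10 animals was left out. Whether it acts on any subunit gene was not tested. Mef2d (0.79 ± 0.16) and Mef2a (0.52 ± 0.13), of the MEF2 family of activity-dependent factors, and Yy1 (0.29 ± 0.08), a zinc finger factor, also rose (log2, SE; edgeR adjusted p = 0.0241, 0.0456 and 0.0458). Mef2d was called in 5 of the 10 fits without 1 animal, and Mef2a and Yy1 in 2 each. The list's count was thus 1 without untreated replicate 3 or RG2833 replicate 1, 2, 3 or 5, and 2 without untreated replicate 1 or RG2833 replicate 4. It was 3 without untreated replicate 2, 5 without untreated replicate 4 and 1 with the replicate block. With scaling by library totals only it was 2, since Mef2a and Yy1 were no longer called. Rest, the repressor that binds RE1 elements in neuronal genes, was lowest at -0.18 ± 0.15 (SE; edgeR adjusted p = 0.506), and its level was only 2.76 to 3.59 CPM.

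**Figure D4:**
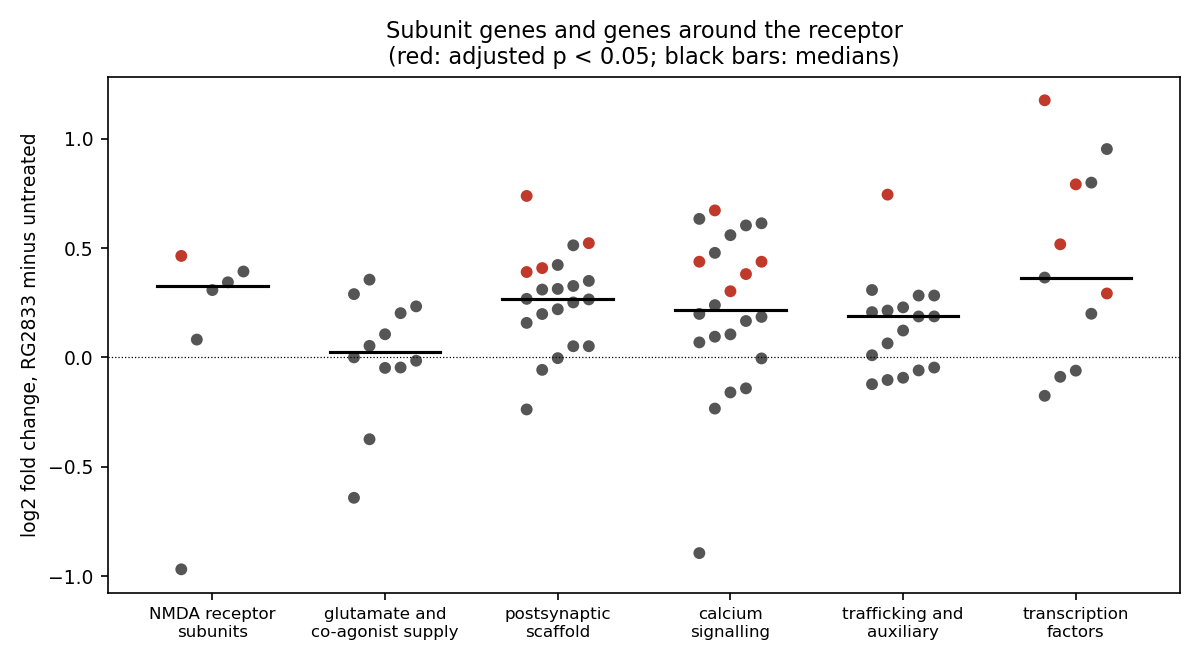
Log2 fold changes (vertical axis, RG2833 minus untreated) of the 6 subunit genes and of the tested genes on 5 lists around the receptor, with 1 point per gene, called genes in red and black bars at the medians. Points called by edgeR lie above 0 in each group that has any, and the supply list has none.

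To describe which genes varied with each subunit from animal to animal, log2 CPM were centred within each group and compared over the 10 animals with 7608 other well expressed genes (7609 for Grin3a). These values are the highest over all genes compared and carry no test. Grin1 was most like Tspyl1 (Pearson r = 0.96), Glrb, a glycine receptor subunit (0.96), and Lrrc4b, a synaptic adhesion gene (0.95). Grin2a was most like Lrrc8b (0.98), Lphn1 (0.97) and Ctcf (0.97), and Grin2b was most like Cacnb1, a calcium channel subunit (0.95), Cbfa2t3 (0.93) and Chtf8 (0.92). Grin2c was most like Mgll, the lipase that degrades an endocannabinoid (0.97), Pabpc4 (0.95) and Poldip3 (0.91). Grin2d was most like Gcs1, Klf6 and Usp11 (0.91 each), and Grin3a was most like Pi4kb (0.96), Rps6ka3 (0.95) and Arl14ep (0.93).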

How the data were processed

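RNA of the left hippocampus of 10 female rats was sequenced as strand-specific mRNA libraries, per the labels' protocols. The submitters' processing notes name bcl2fastq 2.17, Bowtie2 2.1.0, RSEM 1.2.15, edgeR and the build rn6, and the annotation is not given in the sources used here. The authors deposited RSEM expected counts per gene symbol and a signal, CPM after TMM scaling. In each library 99.89 to 99.99% of signal values were a constant times the rounded count (within 0.1%). All 60 member counts were whole numbers. Counts were rounded, filtered with filterByExpr and tested with edgeR 4.0.16 (R 4.3.3, quasi-likelihood, TMM, 10 animals, the group as the single term), with Benjamini-Hochberg adjustment over all tested genes. The SE is the fold change over the square root of F. Ratios used counts plus 0.5 and two-sided exact permutation tests, and their intervals are the shifts such a test keeps.

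The members, lists and tests were chosen with earlier results of these data known, so none is independent support. Named were all members, called genes of the lists, the highest and lowest gene of each list, and the 3 genes most like each member with a mean log2 CPM of at least 4 (prior count 2). Replicates were separate libraries, since the chi-square per degree of freedom in 20 within-group pairs was at least 4.60. Floors and counting errors cover counting only. Alternatives used DESeq2 1.42.0 and limma 3.58.1, among others. Same-numbered samples are different animals.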

Additional observations from a re-analysis of the deposited data

Results flagged for a closer look

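Among 24 groups of 5 values (each member's CPM and each ratio, in each treatment group), 1 had an extreme animal by Dixon's 95% criterion (limit 0.71), where chance gives about 1.2. Grin2b was 57.6 CPM in RG2833 replicate 2 and 43.9 to 46.6 CPM in the other 4 animals of that group, a gap of 0.80 of the range. Without that animal the Grin2b log2 fold change was 0.26 (edgeR adjusted p = 0.245), against 0.34 with all animals.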

How the results depend on the processing

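The number of subunit genes called was 1, Grin1, under DESeq2 size factors, library totals, both other filters, limma-voom, both limma trend fits and removal of ribosomal RNA loci and Bc1. It was 2 with DESeq2's Wald test, where Grin2c joined, and 0 when the share of ribosomal RNA entered the model, where 2 genes were called in all. That share separates the groups, and with it the log2 fold change was -0.41 ± 0.48 (SE) for Grin2a, 0.62 ± 0.24 for Grin2b and 0.47 ± 0.39 for Grin2d. With the replicate block 0 were called (Grin1 0.47, edgeR adjusted p = 0.0568). Deviations of same-numbered animals correlated between -0.32 and 0.15. With no reference range for such values, they do not settle whether the numbers pair animals. Leaving out 1 animal gave 0 to 2 calls, Grin2d log2 fold changes from -0.035 to 0.29, and ranges from -0.070 to 0.25 for the difference in log2 ratio of Grin2a to Grin2b and from -0.17 to 0.14 for that of Grin2a to Grin1. No ratio passed under any alternative run, though labels exchanged within pairs allow no p below 0.0625. Over all genes 599 were called, against 1286 with the Wald test, 180 with the block and 98 to 1556 without 1 animal. Grin3a was not tested at a mean count of at least 50. Its log2 fold change was -0.55 with the limma trend on CPM plus 1 and -0.69 with limma-voom, against -0.97 in the main fit. The alternatives for the 5 lists were chosen after seeing the data. Grin3a had the fewest counts of the 6 members, 11 to 100 per library.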

Other observations

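Grin3b, the other GluN3 gene, is not among the 6 members. It was 3.53, 5.88, 5.03, 4.57 and 4.97 CPM in untreated replicates 1 to 5 and 6.81, 8.03, 5.57, 3.71 and 8.52 CPM in RG2833 replicates 1 to 5. The groups overlapped, and 3 of 5 RG2833 animals lay above all untreated ones. Its log2 difference of 0.45 ± 0.22 SE (edgeR adjusted p = 0.233) did not pass, and its sign was opposite to that of Grin3a. Of its 10 counts, 6 were whole numbers, whereas all 60 counts of the members were.

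The gene for the receptor-associated protein Grina was 873 to 1178 CPM in untreated rats and 1200 to 1244 CPM in RG2833 rats, so the groups did not overlap, with a log2 difference of 0.28 ± 0.08 SE (edgeR adjusted p = 0.0636). Both genes were chosen after their values were seen.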
